A study of Mus musculus with 4 samples.

Results

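The replacement histone genes with polyadenylated transcripts were followed in RNA immunoprecipitated with anti-Cpeb4 or, as the control, with anti-IgG. The genes were taken by symbol from the deposited table: H3f3a and H3f3b (histone H3.3), H2afz and H2afv (H2A.Z), H2afx (H2A.X), H2afy and H2afy2 (macroH2A) and the linker histone genes H1f0 and H1fx, 9 of 53379 genes. All 9 were found and all 9 were above the limit on low values, among 15745 genes tested. RNA came from the V-SVZ (ventricular-subventricular zone), a stem cell layer along the lateral ventricles of the brain, of wild-type (WT) CD1 mice aged P7/P8 (postnatal days). Each of 2 experiments gave 1 library per antibody, 4 in all. Both groups are immunoprecipitated RNA from the same tissue, strain and age, and IgG is the measure of background. The labels do not say how many animals were used or whether the experiments used different animals, so the p-values measure the spread between these libraries, which may be technical.

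Most histone mRNA is made in S phase from clustered genes, has no introns and ends in a stem-loop in place of a poly(A) tail. Replacement histones differ: their genes lie outside the clusters, they are transcribed through the cell cycle and their mRNAs end in poly(A) tails, so that cells which have left the cycle can exchange histones. Cpeb4 belongs to a family of cytoplasmic polyadenylation element-binding proteins, which bind the 3′ ends of mRNAs and act on the length of the poly(A) tail, a form of control that stem-loop histone mRNAs lack.

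Reads on genes, recovered from the steps of the deposited values, numbered 22486721 to 35037171 per library. Levels are FPKM (fragments per kilobase of gene, scaled for depth), which allow for gene length, and fold changes are on the log2(FPKM + 1) scale. The libraries were primed on poly(A) tails, so levels of genes whose mRNAs partly or wholly lack a tail may be too low beside the others. A gene was called where limma's Benjamini-Hochberg adjusted p, over all genes tested, was under 0.05. The median log2 fold change of all tested genes was 0.19 with the authors' scaling, so a gene with that value was at the middle of the distribution and not raised above it. With 4 other scalings of the libraries this median lay between -0.23 and -0.02, a shift of -0.42 to -0.21, and 29.8% to 53.2% of called genes were higher, against 77.0% with the authors' scaling. All 47 markers of 9 cell types of this tissue were tested and none was at 0 in every library. Summed marker levels were 408 to 424 FPKM in IgG and 695 to 712 in Cpeb4 libraries for neural stem cells (3 of 6 called higher, 1 lower), 82.2 to 87.6 against 120 to 123 for cycling progenitors (4 of 6 higher, 1 lower) and 369 to 376 against 541 to 582 for neuroblasts (4 of 6 higher). They were 242 to 265 FPKM against 416 to 458 for astrocytes (2 of 3 higher), 226 to 235 against 346 to 349 for the oligodendrocyte lineage (5 of 5 higher), 123 to 133 against 143 to 147 for microglia (1 of 6 higher, 3 lower) and 51.3 to 52.9 against 66.7 to 69.0 for endothelial and mural cells (1 of 5 higher, 1 lower). Those of ependymal cells (75.7 to 78.8 FPKM in IgG against 55.7 to 65.7, 2 of 5 lower) and of choroid plexus and blood (263 to 290 against 204 to 229, 3 of 5 lower) were lower in Cpeb4 libraries. Of all tested genes, 38.8% were called higher and 11.6% lower. A sum gives most weight to abundant markers: for microglia it was higher in Cpeb4 libraries though more markers were called lower than higher. The part of cell composition in the histone values was not tested. Both groups are precipitates from the same tissue, so the marker sums describe precipitated RNA under the authors' scaling and do not count cells.

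The transcripts of both H3.3 genes, of H2A.X, of both H2A.Z genes and of macroH2A1 were higher in Cpeb4 precipitates, and those of macroH2A2 and the 2 linker histones were not called. The 6 called genes lay between 1.47-fold (H2afz) and 2.88-fold (H3f3b) on the FPKM + 1 scale, and none was called lower. For comparison, 38.8% of all tested genes were called higher and 11.6% lower. In FPKM with the authors' scaling, both Cpeb4 libraries lay above both IgG libraries for all 9 genes, which held for 53.2% of tested genes. Only H3f3a, H3f3b and H2afx were called higher under the authors' and all 4 other scalings, as were 17.4% of tested genes. The median log2 fold change over the 9 genes was 0.59.

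**Figure D1:**
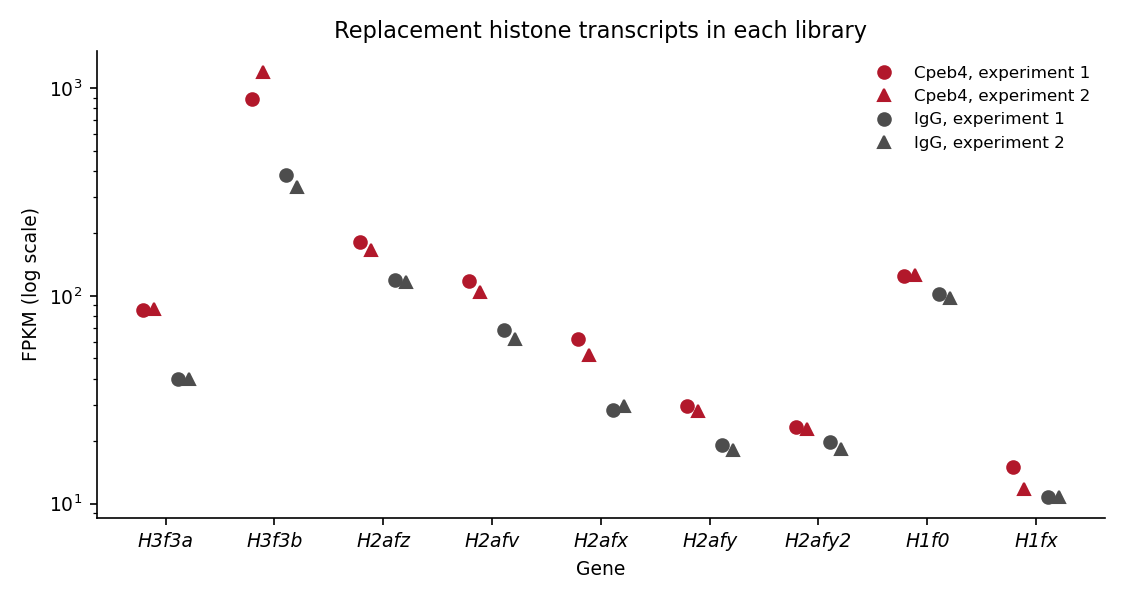
FPKM on a log axis of each replacement histone gene in the 4 libraries; red symbols are Cpeb4 and grey symbols IgG precipitates, circles experiment 1 and triangles experiment 2. For each of the 9 genes both red symbols lie above both grey ones, with the widest gap for H3f3b (891 and 1198 against 384 and 334 FPKM) and the narrowest for H1fx (14.9 and 11.8 against 10.8 in both IgG libraries).

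Histone H3.3 is the replacement form of H3, placed in chromatin outside of replication by the HIRA complex at active genes and by DAXX with ATRX at repeats and telomeres. Its 2 genes encode the same protein and differ in their untranslated regions and regulation. H3f3b (chromosome 11, 116021961 to 116026039; this and the following positions are the RefSeq gene spans on GRCm38.p6) was the most abundant of the 9 by far. It was at 891 FPKM in the Cpeb4 library of experiment 1 and 1198 in that of experiment 2, and at 384 and 334 in the IgG libraries. The Cpeb4 libraries stood far above the IgG libraries, and they also differed more from each other than did those of any other gene in the set. H3f3b ranked 15 and 14 among all tested genes in the Cpeb4 libraries and 35 and 38 in the IgG libraries. Its mean was 1044 ± 217 FPKM (SD, n = 2) against 359 ± 35.3 (n = 2), and limma put the log2 fold change at 1.53 ± 0.18 (SE; adjusted p = 4.31e-06). Only 2.47% of tested genes had a larger log2 fold change. The Cpeb4 to IgG ratio was 2.32 in experiment 1 and 3.59 in experiment 2, and with 1 pair of libraries in each the difference between experiments could not be tested.

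H3f3a (chromosome 1, 180802560 to 180813605) was at 85.4 and 86.2 FPKM in the Cpeb4 libraries and 39.88 and 39.98 in the IgG libraries. The libraries of each antibody were nearly the same and the groups were far apart. By limma, its log2 fold change came to 1.08 ± 0.12 (SE; adjusted p = 2.74e-06), and the ratio was 2.14 in experiment 1 and 2.16 in experiment 2. A larger log2 fold change was found for 9.01% of tested genes. These values rest on 3081 to 7445 reads per library for H3f3a and 22772 to 68777 for H3f3b. Pseudogenes and close copies of these genes can share reads with them. H3f3a-ps1 held 20 to 42 reads per library, H3f3c 20 to 27 and H3f3a-ps2 6 to 14, few beside the parent genes. The antisense transcript H3f3aos held 26 to 42 reads. How the counting treated reads that fit more than 1 copy is not given in the sources used here, so the H3.3 values carry that uncertainty.

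H2A.Z marks promoters and enhancers and is exchanged for H2A by the SRCAP and EP400 complexes. Its 2 genes encode proteins that differ at a few residues. H2afz (H2A.Z.1; chromosome 3, 137864487 to 137866922) was at 181 and 166 FPKM in Cpeb4 and 120 and 116 in IgG precipitates. The groups did not overlap, and the gap was smaller than for H3.3. The gene had a limma log2 fold change of 0.55 ± 0.13 (SE; adjusted p = 0.00281). The H2afz call was lost under each of the 4 other scalings (log2 fold change 0.05 to 0.30, limma adjusted p = 0.0769 to 0.804), with all genes kept (no filter; limma adjusted p = 0.0612), without IgG replicate 1 (limma adjusted p = 0.0653) and without IgG replicate 2 (limma adjusted p = 0.0847). Over all alternatives its limma adjusted p ran from 7.65e-05 to 0.804.

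H2afv (H2A.Z.2; chromosome 11, 6427226 to 6444511) was at 118 and 104 FPKM in Cpeb4 and 68.8 and 61.7 in IgG precipitates. All values of one antibody lay clear of those of the other. This gave a fitted limma change (log2) of 0.75 ± 0.13 (SE; adjusted p = 0.000131), with ratios of 1.71 and 1.68 in the 2 experiments. With libraries scaled to read totals it was 0.25 and no longer called (limma adjusted p = 0.137; range over all alternatives 4.38e-07 to 0.137).

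H2A.X is the H2A form that is phosphorylated around DNA breaks, and its gene is known to give both a stem-loop and a polyadenylated mRNA. The cDNA kit named in the labels primes on poly(A) tails. H2afx (chromosome 9, 44334715 to 44336077) was at 62.2 and 52.1 FPKM in Cpeb4 and 28.1 and 29.5 in IgG precipitates. The Cpeb4 libraries differed from each other, but by less than the gap to the higher IgG library. Between antibodies, limma's log2 estimate was 0.96 ± 0.13 (SE; adjusted p = 1.38e-05), with ratios of 2.21 in experiment 1 and 1.76 in experiment 2. A larger log2 fold change was found for 11.9% of tested genes.

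MacroH2A carries a large macro domain behind its histone fold and is found on the inactive X chromosome and other silent regions. H2afy (macroH2A1; chromosome 13, 56073622 to 56135626) was at 29.5 and 27.9 FPKM in Cpeb4 and 19.2 and 18.2 in IgG precipitates. The replicates were close and the groups separate, at a ratio of 1.54 in experiment 1 and 1.53 in experiment 2. By limma, its log2 fold change came to 0.59 ± 0.12 (SE; adjusted p = 0.000677). H2afy was no longer called when scaled to read totals (0.11 on the log2 scale, limma adjusted p = 0.541), by upper quartile (0.18, limma adjusted p = 0.241) and by median centring (0.29, limma adjusted p = 0.0538). Over all alternatives its limma adjusted p ran from 3.21e-05 to 0.541. H2afy2 (macroH2A2; chromosome 10, 61738640 to 61784604) was at 23.5 and 23.0 FPKM in Cpeb4 and 19.8 and 18.3 in IgG precipitates. The groups did not overlap, but all 4 values were close together. The gene had a limma log2 fold change of 0.28 ± 0.12 (SE; adjusted p = 0.0686) and took the other sign under read totals, upper quartile and median centring (-0.21 to -0.02). H2afy2 was called when either Cpeb4 replicate 1 (0.26) or Cpeb4 replicate 2 (0.29) was left out and the block dropped. The RefSeq spans of both macroH2A genes overlap other genes, Gm31485 for H2afy and Aifm2, Mir5108 and Gm2137 for H2afy2. Because the assay does not mark strand, reads in those overlaps cannot be assigned with certainty.

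Linker histones bind the DNA that enters and leaves the nucleosome. H1f0 encodes H1.0, which builds up in resting and differentiated cells, and H1fx encodes H1x. H1f0 (chromosome 15, 79028212 to 79030504) was at 125 and 126 FPKM in Cpeb4 and 103 and 98.0 in IgG precipitates. It was thus among the most abundant of the 9 and among the least changed. This gave a fitted limma change (log2) of 0.32 ± 0.13 (SE; adjusted p = 0.0549), just short of a call, and it was -0.19 with libraries scaled to read totals and -0.11 by upper quartile. With a filter of 5 FPKM H1f0 was called at the same value (limma adjusted p = 0.043), as it was without the replicate block (limma adjusted p = 0.0341). H1f0 was called when either Cpeb4 replicate 1 (0.33) or Cpeb4 replicate 2 (0.31) was left out in the same way. H1fx (chromosome 6, 87980421 to 87981482) was the least abundant, at 14.9 and 11.8 FPKM in Cpeb4 and 10.8 in both IgG precipitates. The 2 Cpeb4 libraries differed by more than the lower of them differed from IgG. Between antibodies, limma's log2 estimate was 0.27 ± 0.13 (SE; adjusted p = 0.0918), and it was -0.20, -0.13 and -0.03 under read totals, upper quartile and median centring. Without Cpeb4 replicate 2, H1fx was called at 0.43. It had 284 to 558 reads per library, which alone gives a counting error of 4.23% to 5.93%. For the other 8 genes this error was at most 3.17%, and it covers counting only, since amplified reads without molecular identifiers are not independent molecules.

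**Figure D2:**
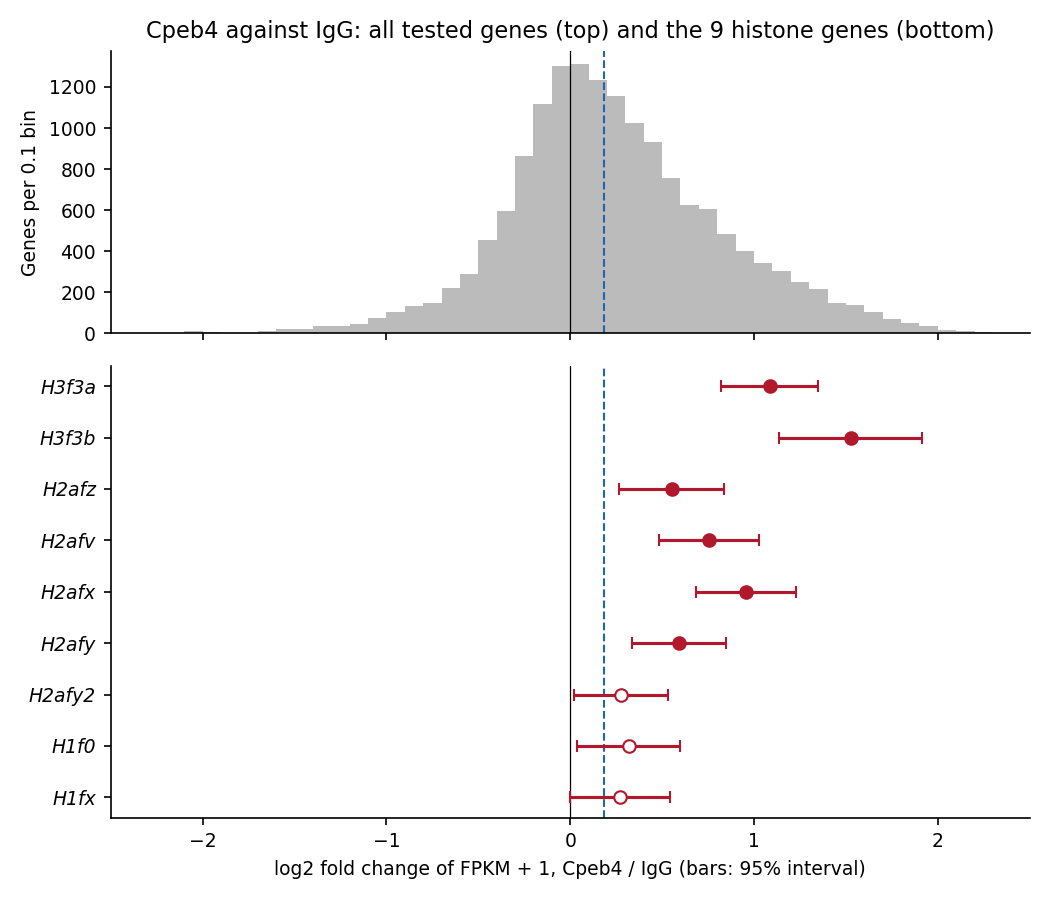
Top, the number of tested genes in each 0.1-wide bin of log2 fold change of FPKM + 1 (Cpeb4 over IgG); bottom, the 9 histone genes with 95% intervals that are not adjusted for multiple tests. The dashed line is the median of all tested genes (0.19); filled points are called, and the open points of H2afy2, H1f0 and H1fx (0.27 to 0.32) lie close to that line.

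Relative to the median of all tested genes, the log2 fold changes were 1.34 for H3f3b, 0.90 for H3f3a, 0.77 for H2afx, 0.57 for H2afv, 0.41 for H2afy, 0.37 for H2afz, 0.13 for H1f0 and 0.09 for both H2afy2 and H1fx. The last 3 genes were thus near the middle of the distribution, where 40.4% to 43.5% of tested genes had a larger value. The number called depended on the scaling: 6 were called higher with the authors' scaling, 5 with trimmed mean of M-values, 4 by median centring or upper quartile and 3 with read totals. The share of all tested genes called higher fell as well, from 38.8% to 26.3% with trimmed mean of M-values, 22.9% by median centring, 20.6% by upper quartile and 17.6% with read totals. As reads per 1000000 reads on genes, without any other scaling, H3f3b was at 1963 and 2441 in Cpeb4 and 1163 and 1013 in IgG libraries. H3f3a was at 212 and 199 against 137 in both IgG libraries. H2afx was at 75.4 and 58.4 against 46.9 and 49.3. On the same scale H1f0 was at 250 and 234 in Cpeb4 and 283 and 270 in IgG libraries, and H2afy2 at 44.8 and 40.6 against 51.9 and 47.9. For both genes this is the opposite order to that in FPKM. H2afv was at 169 and 138 against 135 and 122, while the values of H2afz, H2afy and H1fx overlapped between antibodies. In the authors' deposited table, the same 6 genes had an adjusted p under 0.05 and a positive log2 fold change, and H2afy2, H1f0 and H1fx did not (adjusted p 0.247, 0.105 and 0.413). The same rule called 21.7% of all genes given an adjusted p in the authors' deposited table. The authors' deposited table gave log2 fold changes from 0.28 (H2afy2) to 1.52 (H3f3b).

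**Figure D3:**
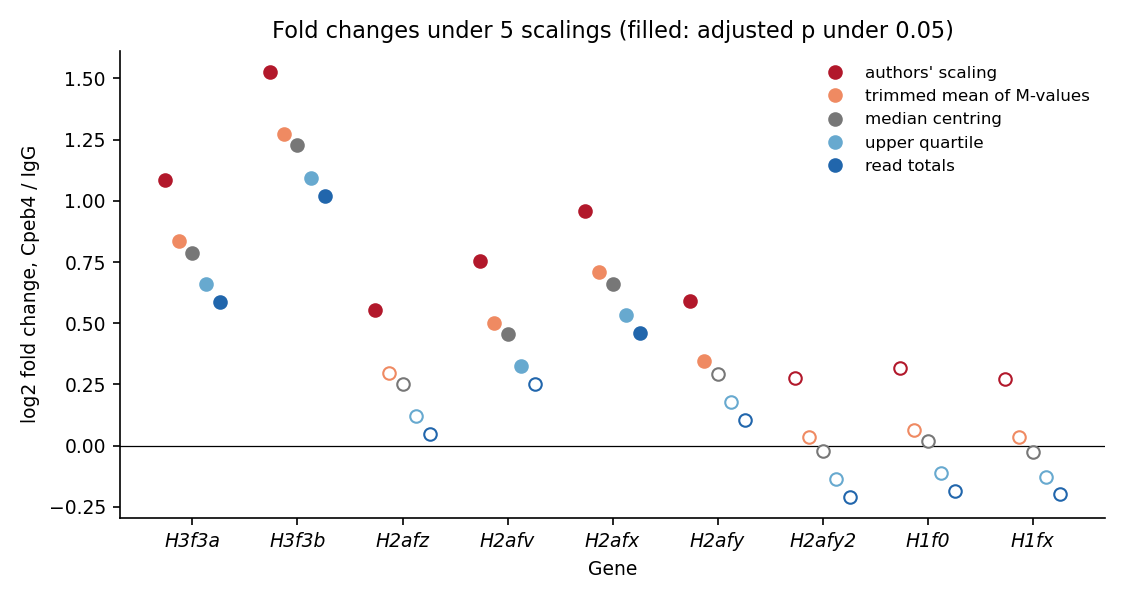
Log2 fold change (Cpeb4 over IgG) of each gene under the authors' scaling and 4 others; filled points have a limma adjusted p under 0.05. H3f3a, H3f3b and H2afx are filled under all 5, while H2afy2, H1f0 and H1fx are open under all 5 and fall below 0 under some.

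The order of levels was nearly the same with both antibodies. From high to low it ran H3f3b, H2afz, H1f0, H2afv, H3f3a, H2afx, then the macroH2A genes, then H1fx. In Cpeb4 precipitates no neighbours in this order overlapped between libraries. In IgG precipitates H2afy2 (19.0 ± 1.10 FPKM, SD, n = 2) and H2afy (18.7 ± 0.68) overlapped, and these were the only neighbours that did. Together the 9 genes summed to 1530 and 1795 FPKM in Cpeb4 and 793 and 727 in IgG libraries. H3f3b made up 58.2% and 66.7% of that sum in Cpeb4 and 48.4% and 45.9% in IgG libraries.

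Paralogs that encode the same kind of histone were then compared within each library, in 4 pairs. A ratio of 2 genes in 1 library does not depend on how libraries are scaled. With 2 libraries against 2, an exact two-sided permutation test that ignores the experiment number, as used here, cannot give a p below 0.333. The size of each difference is therefore given with a 95% interval from limma's standard errors, whose fit keeps the experiment block. That interval takes the errors of the 2 genes as independent. In none of the 4 pairs did that interval exclude 0; for H3f3a and H3f3b it did by upper quartile, with a filter of 5 FPKM and without Cpeb4 replicate 1, and for H2afy and H2afy2 without Cpeb4 replicate 2 (0.34).

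For H3.3, H3f3b stood 10.4 and 13.9 times above H3f3a in the Cpeb4 libraries and 9.63 and 8.35 times in the IgG libraries. Both Cpeb4 ratios were above both IgG ratios. H3f3b thus gave 91.3% and 93.3% of H3.3 transcripts (as FPKM) in Cpeb4 and 90.6% and 89.3% in IgG precipitates. The log2 fold change of H3f3b exceeded that of H3f3a by 0.44 (95% interval -0.03 to 0.91; exact permutation p = 0.333, the smallest possible). The difference between the H3.3 genes rested mostly on experiment 2: without Cpeb4 replicate 2 it was -0.24 as H3f3a minus H3f3b, and without Cpeb4 replicate 1 it was -0.65.

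For H2A.Z, the ratio of H2afv to H2afz was 0.65 and 0.63 in Cpeb4 and 0.58 and 0.53 in IgG libraries. The ratios did not overlap between antibodies, but the log2 fold change of H2afv exceeded that of H2afz by only 0.20 (95% interval -0.19 to 0.60; exact permutation p = 0.333). For macroH2A, the ratio of H2afy2 to H2afy was 0.80 and 0.83 in Cpeb4 and 1.034 and 1.003 in IgG libraries. The levels of the 2 macroH2A transcripts overlapped in IgG precipitates, and H2afy was the more abundant in both Cpeb4 libraries. The log2 fold change of H2afy exceeded that of H2afy2 by 0.32 (95% interval -0.05 to 0.68; exact permutation p = 0.333). For the linker histones, the ratio of H1fx to H1f0 was 0.12 and 0.09 in Cpeb4 and 0.11 in both IgG libraries. These ratios overlapped, and the log2 fold changes differed by 0.05 (H1f0 minus H1fx, 95% interval -0.34 to 0.44; exact permutation p = 1), -0.12 without Cpeb4 replicate 2 and 0.21 without Cpeb4 replicate 1.

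**Figure D4:**
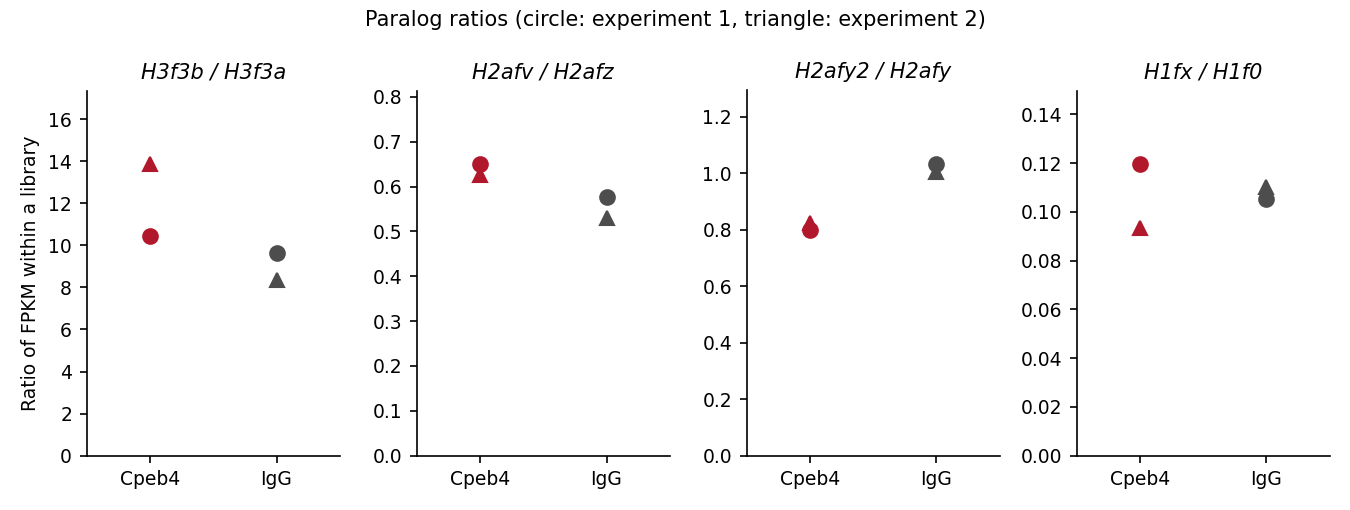
Ratio of FPKM of paralogous histone genes within each library, on linear axes from 0; circles are experiment 1 and triangles experiment 2. The 2 antibodies are separate for H3f3b over H3f3a (10.4 and 13.9 against 9.63 and 8.35), H2afv over H2afz and H2afy2 over H2afy, and overlap for H1fx over H1f0.

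The genes of the histone clusters, whose mRNAs mostly end in a stem-loop, were at low levels in these poly(A)-primed libraries. Of 70 such genes, 56 were below the limit for testing. Their FPKM summed to 66.6 and 62.3 in Cpeb4 and 63.4 and 60.4 in IgG libraries, so that these sums overlapped between antibodies, while those of the replacement histones did not. The replacement histones exceeded the cluster genes 23.0 and 28.8 times in Cpeb4 and 12.50 and 12.03 times in IgG libraries. Of the 14 cluster genes tested, 1 was called higher, 0 lower and 13 not called, and the median log2 fold change was 0.07, beside 38.8% higher, 11.6% lower and a median of 0.19 over all tested genes. Most of the 14 were at a few FPKM or less, where adding 1 FPKM shrinks a log2 ratio more than at replacement histone levels. Hist2h2be, at 2.01 against 1.34 FPKM (means), was fitted at 0.37. The 2 medians are thus not on a like footing. With a pseudocount of 0.1, 1 was again higher and 0 lower. Under the 4 other scalings 0 cluster genes were higher and 2 to 5 lower, while 23.1% to 41.5% of all tested genes were lower. By limma-voom on recovered reads 2 were higher and 0 lower. The called gene was Hist3h2a, at 12.5 and 15.8 FPKM in Cpeb4 and 9.42 and 9.55 in IgG precipitates (log2 fold change 0.52, SE 0.13, limma adjusted p = 0.0028), a call lost under each of the 4 other scalings (0.06 to 0.29 on the log2 scale), with no filter, and without IgG replicate 1 (0.52, limma adjusted p = 0.079) or IgG replicate 2 (0.53, limma adjusted p = 0.0728). Of 8 other variant histone genes, the centromeric H3 gene Cenpa and H2afj were tested; their log2 values of -0.14 and 0.19 were not called (limma adjusted p = 0.404 and 0.232).

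The chaperones and complexes that handle these histones were called at shares near those of all genes. Of 29 genes, all tested, 10 were called higher, 3 lower and 16 not called, or 34.5% higher and 10.3% lower with a median log2 fold change of 0.18, against 38.8%, 11.6% and 0.19 over all genes. Under the 4 other scalings the balance turned, with 3 to 5 higher and 7 to 14 lower. The shares of all tested genes moved as well, to 17.6% to 26.3% higher and 23.1% to 41.5% lower. Asf1a, an H3-H4 chaperone that hands H3.3 to HIRA, was highest, at 17.2 and 20.2 FPKM in Cpeb4 and 6.84 and 6.28 in IgG precipitates. By limma, its log2 fold change came to 1.38 ± 0.13 (SE; adjusted p = 3.93e-07). Rbbp4, a histone-binding subunit shared by CAF-1 and other complexes, followed at 0.87 (74.6 ± 2.14 against 40.5 ± 0.94 FPKM, SD, n = 2, limma adjusted p = 2.73e-05). Both were called higher under all 5 scalings. Chaf1a, the large CAF-1 subunit that places H3 at replication forks, was lower at 5.89 ± 0.01 against 8.83 ± 0.36 FPKM (SD, n = 2), or -0.51 ± 0.13 on the log2 scale (SE; limma adjusted p = 0.00303), a call lost without IgG replicate 2 (-0.48, limma adjusted p = 0.0744). Ssrp1, a subunit of the FACT chaperone, was lower at -0.37 (limma adjusted p = 0.0189), a call lost with no filter and without IgG replicate 1 (-0.35) or IgG replicate 2 (-0.39). Chaf1a and Ssrp1 were called lower under all 5 scalings. The share of all tested genes called lower under all 5 was not counted.

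Some of the factors that handle replacement histones were named whatever their values. The H3.3 chaperone genes Hira, Daxx and Atrx were not called: their log2 values were -0.16, -0.17 and 0.26 and their adjusted p by limma 0.336, 0.278 and 0.111. All of the 4 other scalings gave calls of lower for Hira and Daxx (log2 fold changes of -0.58 to -0.37 and of -0.65 to -0.41), and Atrx took the other sign under 3 of them. Without Cpeb4 replicate 1, Daxx was called lower (-0.30) and Atrx higher (0.41). The other genes of the HIRA complex, added after their values were seen, differed among themselves. Ubn2 was higher at 10.38 and 13.03 FPKM in Cpeb4 against 5.55 and 6.55 in IgG precipitates (0.84 on the log2 scale, limma adjusted p = 3.56e-05), under all 5 scalings. Ubn1 (0.18) and Cabin1 (-0.31) were not called (limma adjusted p = 0.23 and 0.0596), and Cabin1 was called lower under the 4 other scalings, with a filter of 5 FPKM, by limma-voom and without Cpeb4 replicate 1 (-0.40).

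For H2A.Z, the exchange ATPase gene Srcap was at -0.13 (limma adjusted p = 0.528) and was called lower under 3 other scalings. Ep400 was at -0.31 (limma adjusted p = 0.0492), a call lost with no filter and without IgG replicate 1 (-0.33) or IgG replicate 2 (-0.29). Under the 4 other scalings Ep400 was called lower as well (-0.76 to -0.54). Anp32e, which encodes a chaperone that removes H2A.Z, was higher at 73.9 ± 9.59 against 43.1 ± 1.37 FPKM (SD, n = 2; log2 fold change 0.76, SE 0.13, limma adjusted p = 0.000158), a call lost with read totals (0.26). Of 7 further subunits of the exchange complexes, also added after their values were seen, Actl6a (0.50, limma adjusted p = 0.00257) and Yeats4 (0.40, limma adjusted p = 0.0129) were called higher. Both calls were lost under the 4 other scalings and without IgG replicate 2 (0.42 and 0.43), and that of Yeats4 also without IgG replicate 1 (0.37) and with no filter. Vps72, Znhit1, Ruvbl1, Ruvbl2 and Dmap1 were not called (-0.01 to 0.29), and without Cpeb4 replicate 2 Znhit1 (0.46), Ruvbl1 (0.27) and Ruvbl2 (0.28) were called higher. Znhit1 was also called higher with a filter of 5 FPKM, and with read totals Vps72 (-0.48), Dmap1 (-0.48) and Ruvbl2 (-0.33) were called lower. Vps72 (-0.41) and Dmap1 (-0.41) were called lower by upper quartile too, and Dmap1 by median centring (-0.31).

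Genes linked to the making, 3′ processing and turnover of cluster histone mRNA were also counted, and are named 3′ processing genes below. The list is not limited to factors that cut or bind the stem-loop end, and includes Npat, Upf1, Mif4gd and Ncbp1. Of 15 genes, 14 were tested: 8 were called higher, 1 lower and 5 not called, and the median log2 fold change was 0.64, against 38.8% higher and 11.6% lower over all genes. Eri1, the exonuclease that trims the stem-loop end, was at 14.6 and 18.2 FPKM in Cpeb4 and 6.10 and 5.84 in IgG precipitates (log2 fold change 1.31, SE 0.13, limma adjusted p = 7.05e-07). Cstf2, a cleavage stimulation factor subunit, was at 25.3 ± 2.94 against 11.4 ± 0.35 FPKM (SD, n = 2; log2 fold change 1.09, SE 0.13, limma adjusted p = 3.18e-06). Eri1 and Cstf2 were called higher under all 5 scalings. Srrt, which links the cap-binding complex to 3′ processing, was lower at -0.40 (limma adjusted p = 0.0133), a call lost with no filter and without IgG replicate 1 (-0.48) or IgG replicate 2 (-0.33). Srrt was called lower under all 5 scalings (-0.88 to -0.40).

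**Figure D5:**
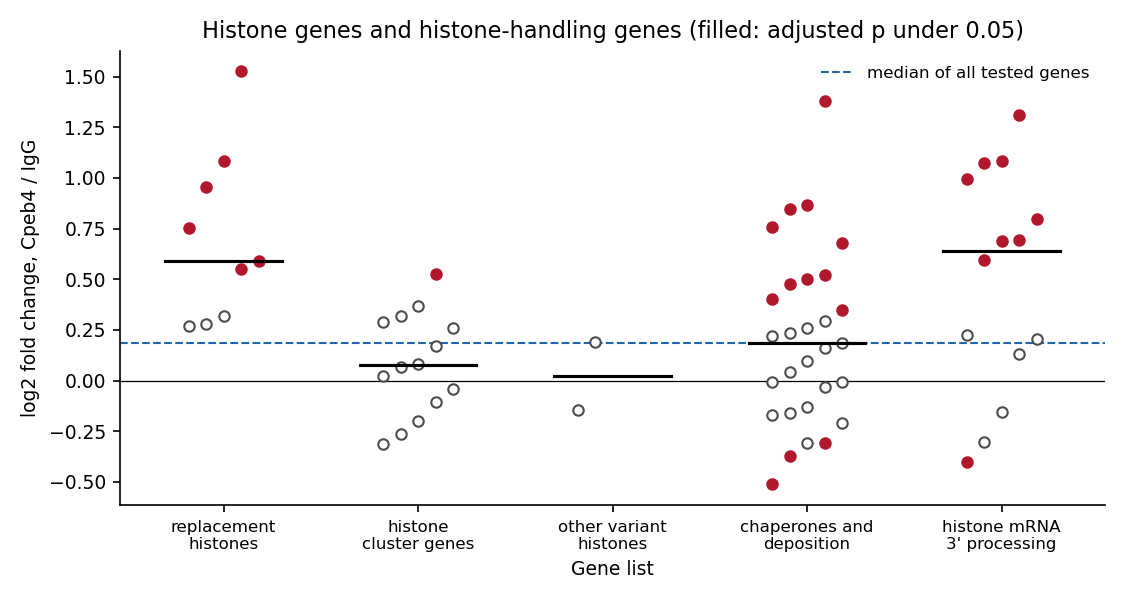
Log2 fold change (Cpeb4 over IgG) of the tested genes in each histone-related list; filled points have a limma adjusted p under 0.05, black bars are list medians and the dashed line is the median of all tested genes (0.19). The medians are 0.59 for the replacement histones, 0.07 for the cluster genes, 0.02 for other variants, 0.18 for chaperones and 0.64 for 3′ processing genes. Most cluster genes shown are at a few FPKM or less, where adding 1 FPKM shrinks the log2 fold change.

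The genes nearest to the H3.3 genes over the 4 libraries, by Euclidean distance of log2(FPKM + 1), were Celf1, Fam210b and F3 for H3f3a (distances 0.05, 0.09 and 0.10). For H3f3b they were the membrane glycoprotein genes Gpm6b and Gpm6a and the mitochondrial mt-Nd4 (0.40, 0.57 and 0.61). With 4 libraries this measure reflects the mean level and the antibody difference and little else. Gpm6b was at 1016 and 1201 FPKM in Cpeb4 and 438 and 411 in IgG libraries.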

How the data were processed

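RNA precipitated with anti-Cpeb4 or IgG was analysed in 4 libraries. Per the labels, RNA was isolated with the MAGNA RIP kit, and SMART-Seq v4 cDNA and Nextera XT libraries were made; this chemistry does not mark strand. Genome build mm10 and the tools STAR 2.6.0c, DESeq2 1.26.0, HTSeq 0.6.1p2, FastQC 0.11.5 and Trim Galore 0.5.0 are listed, per the submitters' processing notes. Per the file headers, the authors deposited FPKM per library, a mean normalised signal, log2 fold changes, their standard errors, and adjusted p-values. Reads were recovered from FPKM and mean signal, and 100% of values were whole within 0.01. They give the depth, 22486721 to 35037171 reads per library.

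Genes at 1 FPKM or more in at least 2 libraries (15745) were tested two-sided by limma 3.58.1, on the log2(FPKM + 1) scale (R 4.3.3; trended prior; terms for antibody and for experiment, the latter a block). The fit has 1 residual degree of freedom and a prior of 14.6. The block was kept because the name of the deposited table refers to a batch; deviations of same-numbered libraries correlated at 0.002, so the numbers are not shown to pair the libraries by value. Replicate pairs differed beyond counting error (chi-square per degree of freedom 28.2 for Cpeb4 and 6.3 for IgG), so none was 1 library given more than once. The limma code was run on simulated data with independent noise and few changed genes, which checks the code and not the calls made here. The members and gene lists were chosen with earlier results of these data known. Within lists, the 2 genes called in each direction with the smallest adjusted p are named, with Hira, Daxx, Atrx, Srcap, Ep400 and Anp32e; other HIRA-complex and H2A.Z-exchange genes of the list were added after their values were seen; nearest genes leave out predicted symbols. All 9 genes matched a symbol or synonym in RefSeq. Alternatives were other scalings, filters (none, 5 FPKM), a pseudocount of 0.1, no block, limma-voom on recovered reads, and each library left out.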

Additional observations from a re-analysis of the deposited data

How the results depend on the processing

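With 2 libraries per antibody, each call leans on a spread shared over all genes. Of the 9 histone genes, 6 were called higher and 0 lower. With read totals 3 were higher; without the replicate block, 7, H1f0 being added (limma adjusted p = 0.0341), as with a filter of 5 FPKM. The share of all genes called without the block or with that filter is not given here. With each library left out, the block was dropped and the lone library was assumed to vary like the complete pair. H3f3a, H3f3b and H2afx were called higher under every alternative that left no library out. The share of all tested genes that did so was not counted, so these calls are not shown to be unusual. Under the 5 scalings alone, 17.4% of tested genes were called higher throughout. The log2 fold changes with each library left out were 1.08 to 1.09 for H3f3a, 1.31 to 1.74 for H3f3b and 0.83 to 1.08 for H2afx. Reversed log2 fold changes were those with read totals (H2afy2 -0.21, H1f0 -0.19, H1fx -0.20), upper quartile (-0.14, -0.11 and -0.13) and median centring (H2afy2 -0.022, H1fx -0.027); these scalings move all genes down, and no other cause was tested.

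The H3f3a minus H3f3b difference (-0.44) passed its interval with a filter of 5 FPKM (-0.44) and by upper quartile (-0.43), and ranged from -0.65 to -0.24 with each library left out. That of H2afz minus H2afv ranged from -0.26 to -0.14, that of H2afy minus H2afy2 from 0.29 to 0.34, and that of H1f0 minus H1fx from -0.12 to 0.21, the first of these without Cpeb4 replicate 2. The cause was not tested.

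For chaperones, the 10 higher and 3 lower calls became 3 and 14 with read totals, 4 and 12 by upper quartile, 5 and 7 with trimmed mean of M-values, 5 and 10 by median centring and 6 and 1 with no filter; each library left out gave 5 to 13 higher and 0 to 5 lower. For cluster genes, 1 and 0 became 0 and 5, 0 and 4, 0 and 2, and 0 and 4 under the same 4 scalings, 0 higher with no filter and 2 higher with limma-voom; each library left out gave 0 to 2 higher and 0 to 2 lower. For 3′ processing genes, 8 and 1 became 4 and 4 with read totals; 3 were lower under the other 3 scalings, 2 with a filter of 5 FPKM or limma-voom and 0 with no filter, and 0 to 2 with each library left out. For other variant genes, 1 was lower under each of the 4 scalings. Of all tested genes, 17.6% were higher and 41.5% lower with read totals, and 20.6% and 37.2% by upper quartile. These shares were 26.3% and 23.1% with trimmed mean of M-values and 22.9% and 30.8% by median centring. They are not given for the other settings.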
